A study of Mus musculus with 10 samples.

Results

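The BH3-only genes encode the proteins that start the mitochondrial route of apoptosis. The list named 8 of them: Bid, Bad, Bik, Bmf, Hrk, Bbc3, Pmaip1 and Bcl2l11. A gene was measured where a probe set was annotated to it alone, and 7 of the 8 were, with 1 such probe set each, among 18820 genes measured in the same way. Bad was not measured, because both probe sets that list it also list Gpr137. Expression was compared between teratomas that the labels call apoptosis-resistant, those with the P81S form of VHL, and teratomas that they call apoptotic, those with wildtype VHL or the R167Q form.

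Every tumour came from J1 embryonic stem cells (strain Sv/129) without mouse Vhl, and every line carried a human VHL cDNA introduced by electroporation, so the Vhl loss and the transgene were common to all groups. Cells were injected under the skin of both flanks of female nude (nu/nu) mice, and tumours were frozen when they reached a set size. There were 4 arrays of P81S, 3 of wildtype and 3 of R167Q, 10 in all. The P81S arrays were 2 replicates from each of 2 clones, and no source used here says which arrays share a clone, how many clones the other genotypes had, which promoter drove the cDNA, or whether tumours shared a host. The age of the hosts is also not given in the sources used here. Replicates are labelled biological, and the p-values measure the spread between these tumours and do not separate clone from genotype.

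In healthy cells, survival proteins of the BCL2 family hold the pore formers BAX and BAK in check on the mitochondrial membrane. BH3-only proteins carry a short helix, the BH3 domain, that fits a groove of the survival proteins and blocks them, and some of them also activate the pore formers directly. They are started in different ways: PUMA (Bbc3) and NOXA (Pmaip1) are classical transcriptional targets of p53, BIM (Bcl2l11) and BMF are also held on the cytoskeleton, BID and BAD are switched by cleavage or phosphorylation, and harakiri (Hrk) is induced in dying neurons. RNA levels show only the transcriptional part of this control.

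Hrk rose in P81S and was the only measured BH3-only gene that passed the test in any comparison. It was 1.56-fold higher in P81S than in the mean of wildtype and R167Q. In that comparison 18.3% of all genes were called higher and 17.4% lower. The Hrk call was lost without P81S replicates 3 and 4 (0.44 log2, limma adjusted p = 0.0834). Against R167Q alone it was also lost without some single arrays, and against wildtype alone without wildtype replicate 3. None of the other 6 passed. Bcl2l11 and Bmf spread widely among the P81S arrays, with replicate 1 high and replicates 3 and 4 low. Their calls depended on which arrays were used: both were called lower without replicate 1, and without replicates 3 and 4 the differences were -0.09 log2 for Bcl2l11 and 0.10 log2 for Bmf, neither called.

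The P81S arrays differed among themselves in the levels of tissue markers, and the part of this in the values below was not tested. The mean of 10 squamous epithelium markers was 9.15 log2 in P81S replicate 1 and 6.25 to 6.99 in the other 9 arrays. The mean of 11 gut and glandular epithelium markers was 8.53 log2 in P81S replicate 1 and at most 7.95 in the other 9. Replicate 1 was also the highest of the 10 arrays for fibroblast and matrix markers (10.68 log2, others 8.99 to 10.02) and for endothelium markers (9.61 log2, others 7.43 to 8.95). Every probe set reads on every array, so a value for a neuron, glia, muscle, endothelium, cartilage or blood cell list does not show that tissue present. The cartilage and bone means (6.44 to 6.73 log2) and the neutrophil and lymphocyte means (4.93 to 5.45 log2) lay below the array medians of 6.97 to 7.11. Of 12 pluripotency markers 11 were lower in P81S than in the mean of the other genotypes (P81S list means 6.54 to 8.07 log2, wildtype 10.08 to 10.76, R167Q 9.21 to 10.16), and of 13 cell cycle markers 13 were lower. In bulk tumours, fewer cells of a type and less RNA per cell cannot be told apart.

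The 250 bases before the first RefSeq start of Hrk, Bcl2l11 and Bmf are shown because Hrk was the gene that passed and the other 2 were those whose call turned on P81S replicate 1. They were read from RefSeq's GRCm38.p6 windows, which held 6 of the 8 listed genes. The letters run 5′ to 3′ on the gene's strand. Capitals mark matches on either strand to the motifs searched: GTAAACA (bound by FOXO factors), GGGCGG (the GC box of SP factors), ACGTG (the HIF core), CACGTG (the E-box, which contains the HIF core), TGACTCA (AP-1), TTTGGCG and TTTCGCG (E2F).
Hrk chr5:118169514-118169763 (+ strand): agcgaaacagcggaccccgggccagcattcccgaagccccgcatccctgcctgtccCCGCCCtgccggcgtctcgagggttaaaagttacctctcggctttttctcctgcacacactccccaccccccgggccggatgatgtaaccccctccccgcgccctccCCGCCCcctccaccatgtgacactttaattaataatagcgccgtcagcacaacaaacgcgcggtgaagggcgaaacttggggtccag
Bcl2l11 chr2:128125788-128126037 (+ strand): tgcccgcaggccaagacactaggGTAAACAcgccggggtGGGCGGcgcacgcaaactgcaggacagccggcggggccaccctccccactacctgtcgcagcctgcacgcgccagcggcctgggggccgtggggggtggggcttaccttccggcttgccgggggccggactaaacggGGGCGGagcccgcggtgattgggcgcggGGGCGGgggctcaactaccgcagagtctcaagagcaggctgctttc
Bmf chr2:118549687-118549936 (- strand): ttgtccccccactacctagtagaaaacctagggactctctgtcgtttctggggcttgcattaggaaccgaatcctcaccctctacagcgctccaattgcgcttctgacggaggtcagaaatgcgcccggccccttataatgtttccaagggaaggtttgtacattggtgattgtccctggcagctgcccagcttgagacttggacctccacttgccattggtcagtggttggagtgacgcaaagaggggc
The Hrk window held 2 GC boxes and no other motif of the search. The Bcl2l11 window held 1 FOXO motif and 3 GC boxes, and the Bmf window held none of the motifs. Over all 32851 windows of the same length, 32.7% held a GC box, 3.17% the FOXO motif, 16.6% the HIF core, 6.02% the E-box, 4.46% the AP-1 motif, 1.26% TTTGGCG and 0.703% TTTCGCG. The GC content was 63.2% for Hrk, 72% for Bcl2l11 and 54% for Bmf, against a median of 52.4% over all windows. A match is a description of these letters and not evidence of a bound site.

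Hrk (probe set 10524969) encodes harakiri, which binds the survival proteins BCL2 and BCL-XL. P81S replicates 1 to 4 read 7.37, 7.57, 7.67 and 8.10 log2. In wildtype replicates 1 to 3 they were 7.03, 7.15 and 6.88 log2, and in R167Q replicates 1 to 3 they were 6.93, 7.24 and 6.97 log2. All 4 P81S arrays lay above all 6 others, and replicate 4 was the highest. The P81S mean was 7.68 ± 0.31 log2 (SD, n = 4), the wildtype mean 7.02 ± 0.14 (SD, n = 3) and the R167Q mean 7.05 ± 0.17 (SD, n = 3). These means lay above those of 45.2%, 37.7% and 37.4% of all genes in the same genotype, so Hrk was among the dimmer genes.

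The difference of Hrk from the mean of wildtype and R167Q was 0.64 ± 0.15 log2 (SE; 95% interval 0.30 to 0.98; limma adjusted p = 0.00705). The exact two-sided permutation test on the same arrays gave p = 0.00476, the smallest that 4 against 6 arrays can give. Against wildtype alone Hrk was 1.58-fold higher (0.66 ± 0.18 log2, limma adjusted p = 0.0154), and against R167Q alone 1.54-fold higher (0.63 ± 0.18 log2, limma adjusted p = 0.0295). These comparisons share the P81S arrays. The exact permutation p was 0.0571 for each of them, where the smallest possible is 0.0286. R167Q and wildtype differed in Hrk by 0.03 ± 0.19 log2 (95% interval -0.39 to 0.46, limma adjusted p = 0.977).

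The rise of Hrk against the mean of both genotypes passed with any 1 array left out, with log2 differences of 0.50 to 0.74 and limma adjusted p of 0.00286 to 0.0206. With P81S replicates 3 and 4 left out it was 0.44 log2 and missed the threshold (limma adjusted p = 0.0834), and with replicates 1 and 2 left out it was 0.85 log2 (limma adjusted p = 0.00306). The call against wildtype ended without wildtype replicate 3 (limma adjusted p = 0.0658) and without P81S replicates 3 and 4 (0.45 log2, limma adjusted p = 0.101). The call against R167Q ended without P81S replicate 3 (0.0619), P81S replicate 4 (0.0592), R167Q replicate 1 (0.116) or R167Q replicate 3 (0.098), all limma adjusted p. It also ended without P81S replicates 3 and 4 together (0.42 log2).

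Neuron markers were high in the same arrays as Hrk. Of 10 measured, 8 were higher in P81S than in the mean of the other genotypes and 0 lower, by limma, with P81S list means of 11.35 to 11.72 log2, wildtype means of 10.53 to 10.94 and R167Q means of 10.78 to 11.21. Within P81S the order differed: Hrk was highest in replicate 4, where the neuron mean was 11.51 log2, and the neuron mean was highest in replicate 2. Glia markers were ordered over the P81S arrays as Hrk was, with list means of 9.96, 10.10, 10.26 and 10.72 log2 in replicates 1 to 4. The glia means were 9.34 to 9.76 log2 for wildtype and 9.50 to 10.24 for R167Q. Of 9 glia markers measured, 4 were called higher in P81S against the mean of both genotypes and 0 lower. Taken alone, 3 were called higher against wildtype and 1 against R167Q. The part of neuron and glia content in the difference of Hrk was not tested.

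Genes with the pattern most like that of Hrk over the 10 arrays were Slc35a2 (Pearson r = 0.987), a UDP-galactose transporter of the Golgi, Pcdh20 (r = 0.984), a protocadherin, and Cmtm5 (r = 0.982). Slc38a4 (r = -0.985), an amino acid transporter, Alpl (r = -0.983), the alkaline phosphatase that also marks pluripotent cells, and Slc25a13 (r = -0.980), a mitochondrial aspartate-glutamate carrier, ran most opposite. These were picked from 12718 genes with an SD of at least 0.2 log2, the same group difference runs through every array, and so the values are descriptions. Cmtm5 had means of 10.86 log2 in P81S, 9.30 in wildtype and 9.49 in R167Q, and Alpl 8.51, 10.59 and 10.23.

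**Figure D1:**
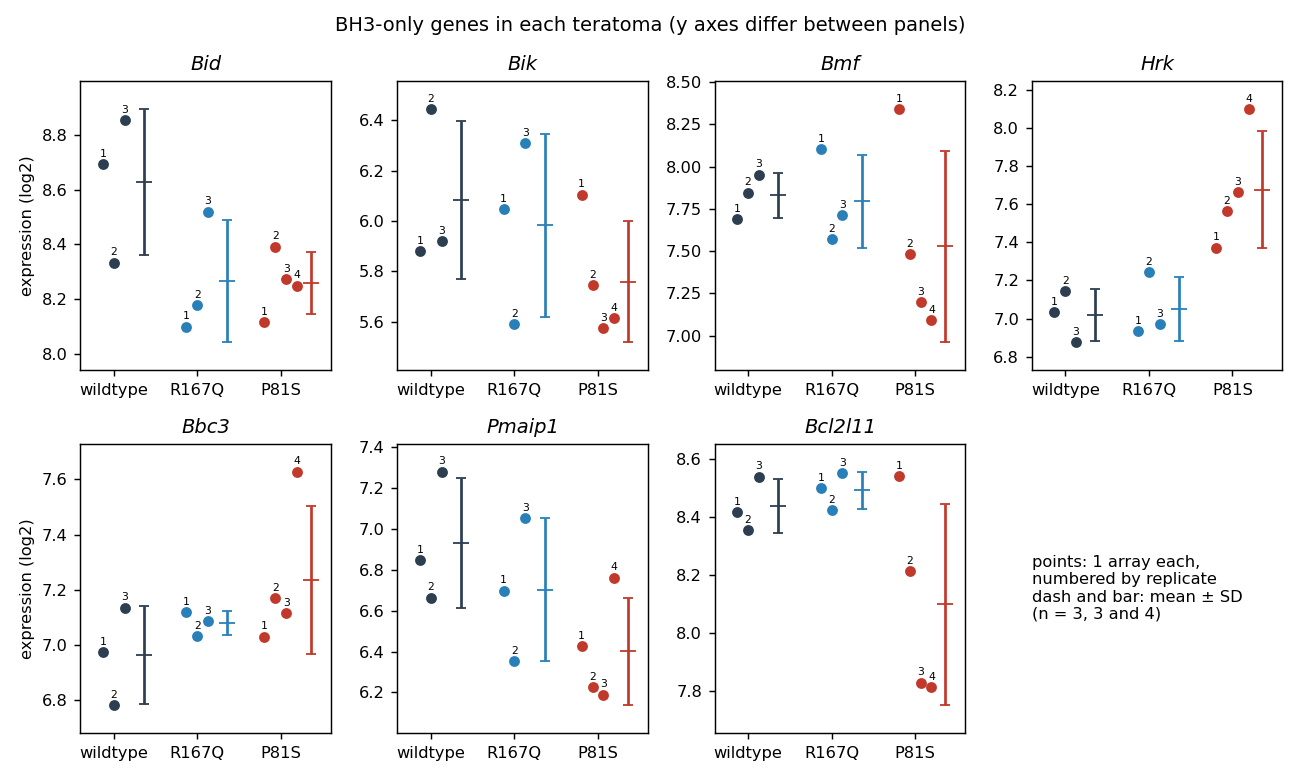
Expression (log2, y axis, scaled separately for each gene) of the 7 measured BH3-only genes in each array, by genotype, with points numbered by replicate and a dash and bar for mean ± SD (n = 3 wildtype, 3 R167Q, 4 P81S). Hrk in P81S (7.37 to 8.10) lies above every other array, and Bcl2l11 and Bmf spread widely within P81S, with replicate 1 at 8.54 and 8.34.

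Bcl2l11 (probe set 10475866) encodes BIM, which binds all the main survival proteins and can activate the pore formers. It read 8.54, 8.21, 7.83 and 7.82 log2 in P81S replicates 1 to 4. The wildtype values were 8.42, 8.36 and 8.54 log2, and the R167Q values 8.50, 8.42 and 8.55 log2. The 6 arrays outside P81S lay within 8.36 to 8.55, P81S replicate 1 lay among them, and replicates 2 to 4 lay below them. The difference from the mean of wildtype and R167Q was -0.37 ± 0.15 log2 (95% interval -0.69 to -0.04), at a limma p of 0.0309 before adjustment and an adjusted p of 0.0779.

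Without P81S replicate 1 the difference of Bcl2l11 was -0.51 log2 and passed (limma adjusted p = 0.00647), against wildtype -0.49 (0.0179) and against R167Q -0.54 (0.0159). Without replicates 1 and 2 it was -0.64 log2 (limma adjusted p = 0.00174), and without replicates 3 and 4 it was -0.09 log2 (limma adjusted p = 0.699). P81S replicate 1 was the array with the highest epithelial, fibroblast and endothelium markers. From replicate 2 to replicate 3 these list means rose while Bcl2l11 and Bmf fell. The rises were 6.25 to 6.90 log2 (squamous), 7.10 to 7.70 (gut and glandular), 8.99 to 9.56 (fibroblast) and 7.43 to 8.55 (endothelium). Cell cycle list means were 9.995, 10.04, 9.48 and 8.82 log2 in P81S replicates 1 to 4, so they were also lower in replicates 3 and 4. The part of any of these cells in the Bcl2l11 and Bmf levels was not tested. Between R167Q and wildtype Bcl2l11 differed by 0.05 ± 0.19 log2 (95% interval -0.36 to 0.46).

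Bmf (probe set 10486112), a BH3-only protein known for its response to loss of attachment, spread most within P81S. P81S replicates 1 to 4 gave 8.34, 7.48, 7.20 and 7.09 log2. Wildtype gave 7.69, 7.85 and 7.95 log2, and R167Q 8.10, 7.57 and 7.71 log2. P81S replicate 1 was the highest of all 10 arrays, and P81S replicates 2 to 4 were the lowest. Its SD was 0.57 log2 in P81S, 0.13 in wildtype and 0.28 in R167Q. The difference from the mean of the other genotypes was -0.28 ± 0.23 log2 (95% interval -0.79 to 0.22, limma adjusted p = 0.380).

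Without P81S replicate 1, Bmf was 0.56 log2 below the mean of wildtype and R167Q and passed: the difference was -0.56 (limma adjusted p = 0.0138), -0.57 against wildtype (0.0239) and -0.54 against R167Q (0.0426). Without replicates 3 and 4 its sign turned, to 0.10 log2 (limma adjusted p = 0.816). Over the 10 arrays Bmf and Bcl2l11 correlated with r = 0.86, and Bcl2l11 and Hrk with r = -0.88, values over arrays that share the genotype difference. The count of measured BH3-only genes that passed in P81S against the mean of the other genotypes was thus 1 with all arrays and 3 without replicate 1, 1 higher and 2 lower, where 18.9% of all genes were called higher and 18.5% lower. It was 5 with arrays weighted by their fit, in which Bik and Pmaip1 passed as well and 45.4% of all genes were called. It was 0 without replicates 3 and 4, for which the share of all genes is not given here.

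**Figure D2:**
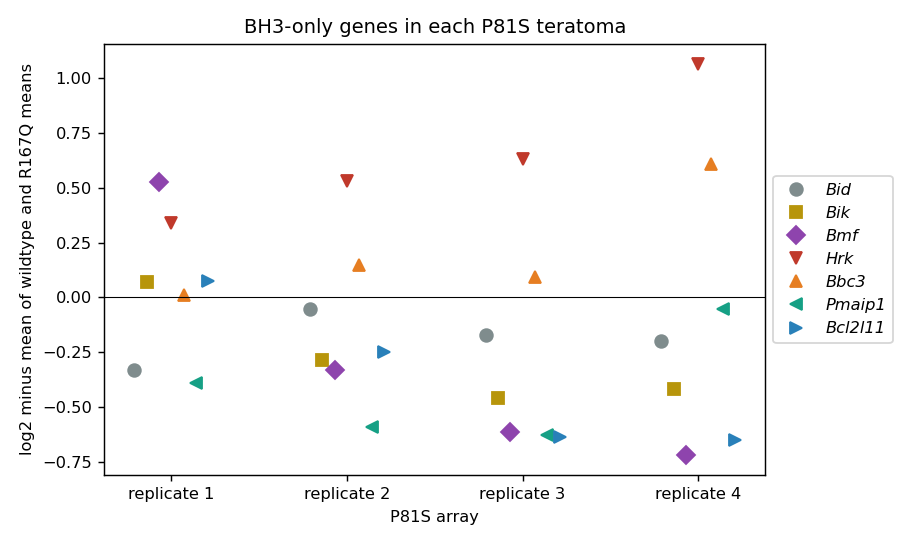
Level of each measured BH3-only gene in P81S replicates 1 to 4 (x axis) minus the mean of the wildtype and R167Q means (log2, y axis), 1 point per gene and array. Hrk lies above 0 in all 4 arrays (0.34 to 1.07), and Bmf lies at 0.53 in replicate 1 and at -0.72 in replicate 4.

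Pmaip1 (NOXA, probe set 10456357), which blocks MCL1 in particular, read 6.43, 6.23, 6.19 and 6.76 log2 in P81S replicates 1 to 4. The wildtype values were 6.85, 6.66 and 7.28 log2 and the R167Q values 6.70, 6.35 and 7.05 log2. The groups overlapped, with P81S replicate 4 above wildtype replicate 2. Its difference was -0.42 ± 0.19 log2 from the mean of both genotypes (limma adjusted p = 0.109) and -0.53 ± 0.22 log2 from wildtype (limma adjusted p = 0.0868). Without P81S replicate 4 the second was -0.65 log2 and passed (limma adjusted p = 0.0462).

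Bbc3 (PUMA, probe set 10550290), which binds all the main survival proteins, read 7.03, 7.17, 7.12 and 7.63 log2 in P81S, 6.98, 6.78 and 7.14 log2 in wildtype and 7.12, 7.03 and 7.09 log2 in R167Q. Replicate 4 of P81S stood above the other 9 arrays. The difference from the mean of wildtype and R167Q was 0.21 ± 0.14 log2 (95% interval -0.10 to 0.53, limma adjusted p = 0.278). Of these classical p53 targets, then, Bbc3 was measured above and Pmaip1 below the other genotypes, and neither passed.

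Bid (probe set 10547531, chromosome 6) links death receptors to mitochondria after caspase-8 cuts its protein. It read 8.12, 8.39, 8.27 and 8.25 log2 in P81S, 8.69, 8.33 and 8.85 log2 in wildtype and 8.10, 8.18 and 8.52 log2 in R167Q. Wildtype was the highest group, with replicate 2 among the mutant arrays. P81S minus wildtype was -0.37 ± 0.16 log2 (95% interval -0.72 to -0.02, limma adjusted p = 0.0936) and R167Q minus wildtype -0.36 ± 0.17 log2 (95% interval -0.73 to 0.01, limma adjusted p = 0.517), 2 comparisons that share the wildtype arrays. P81S and R167Q differed by -0.01 ± 0.16 log2 (95% interval -0.35 to 0.34). Without wildtype replicate 2 the P81S difference from wildtype was -0.52 log2 and passed (limma adjusted p = 0.0380).

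Bik (probe set 10425801, chromosome 15), a BH3-only protein of the endoplasmic reticulum, lay between 5.57 and 6.45 log2 in all arrays. All these values were below the array medians of 6.97 to 7.11 log2, and signal over background is not known. The groups overlapped: P81S held 5.57 to 6.10, wildtype 5.88 to 6.45 and R167Q 5.59 to 6.31. Its difference from the mean of the other genotypes was -0.27 ± 0.18 log2 (95% interval -0.67 to 0.13, limma adjusted p = 0.284).

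Counted together, 1 of the 7 measured genes rose, 0 fell and 6 did not pass in P81S against the mean of wildtype and R167Q (limma adjusted p under 0.05). At an unadjusted p under 0.05, 1 was higher and 2 were lower, Pmaip1 and Bcl2l11, where 22.1% of all genes were higher and 21.5% lower. Among all 18820 genes 35.7% passed in that comparison, 18.3% higher and 17.4% lower, so the share of BH3-only genes, 14.3%, was not above that of genes at large. Against wildtype the counts were again 1, 0 and 6, where 34.7% of all genes passed, 17.2% higher and 17.5% lower. Against R167Q they were also 1, 0 and 6, where 22.5% of all genes passed, 12.4% higher and 10.1% lower. Before adjustment Hrk was higher and 2 genes were lower against wildtype (Bid and Pmaip1; of all genes 21.4% higher and 21.7% lower), and Hrk was higher and 1 gene lower against R167Q (Bcl2l11; of all genes 18.3% higher and 15.9% lower). Hrk was the 1 gene of 7 whose arrays did not overlap in these comparisons, with all P81S arrays higher. Of all genes, the arrays did not overlap for 26.4% against both genotypes (13.7% higher, 12.7% lower), 40.6% against wildtype (19.9% higher, 20.7% lower) and 30.7% against R167Q (16.5% higher, 14.2% lower). The median difference was -0.27 log2 over the 7 genes and 0.02 over all genes, and the median size of the difference was 0.28 and 0.25.

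R167Q against wildtype gave 0 of 7 genes by limma, and 0 at an unadjusted p under 0.05, where 3.93% of all genes were higher and 5.8% lower. The exact permutation test cannot go below 0.1 with 3 arrays a group. Of all genes 0.0903% passed, 0.0638% higher and 0.0266% lower. The arrays of these groups overlapped for all 7 genes, and did not for 19.3% of all genes (6.93% higher, 12.4% lower). The 95% intervals of the 7 differences reached from -0.75 to 0.60 log2, so changes of that size were not resolved.

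**Figure D3:**
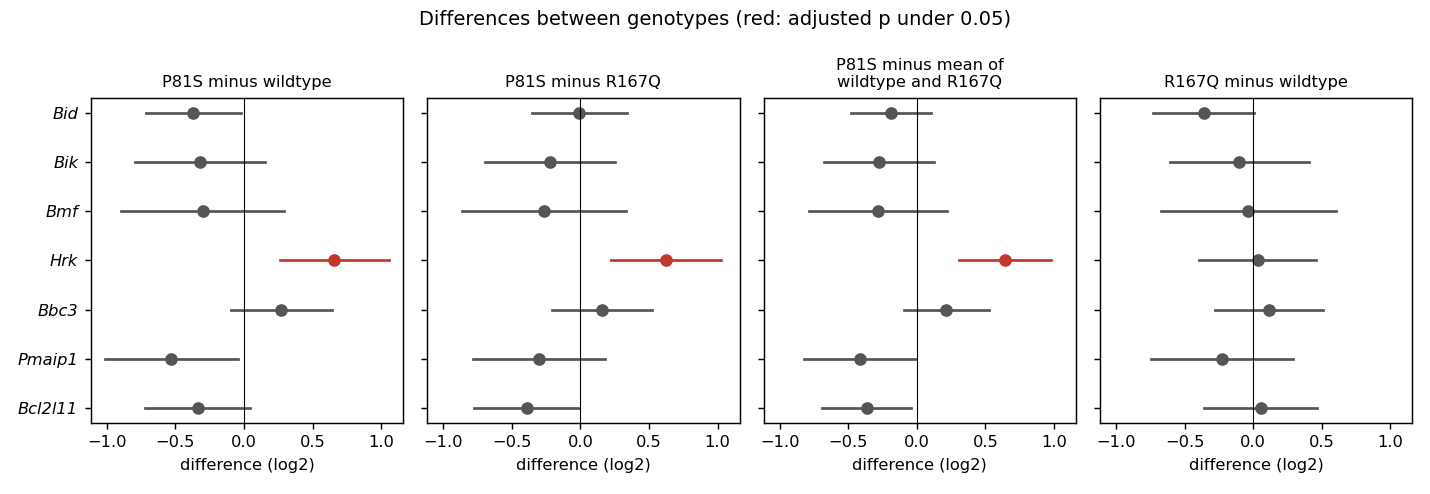
Log2 difference (x axis) of each measured BH3-only gene in 4 comparisons, with 95% intervals from the limma model, in red where the adjusted p was under 0.05. Hrk (0.66, 0.63 and 0.64) is the red gene in the 3 comparisons that involve P81S, and no gene is red in R167Q minus wildtype.

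The targets of BH3-only proteins moved by small amounts and in both directions. Of 9 listed survival genes 6 were measured, and in P81S against the mean of wildtype and R167Q 2 were called higher and 1 lower. Of all genes 18.3% were called higher and 17.4% lower in that comparison. Bcl2l1 (BCL-XL) read 9.66, 9.59, 9.57 and 9.73 log2 in P81S, 9.09, 8.89 and 8.92 in wildtype, and 9.04, 9.31 and 9.35 in R167Q. All P81S arrays lay above the others, and the gene was 1.45-fold higher (0.54 ± 0.09 log2, limma adjusted p = 0.00107). Bcl2 was 1.20-fold higher (0.27 ± 0.09 log2, limma adjusted p = 0.0473), with R167Q replicate 2 at 10.90 log2 inside the P81S range of 10.69 to 10.92. Against wildtype alone Bcl2 differed by 0.41 ± 0.11 log2 (limma adjusted p = 0.0148). Against R167Q alone it differed by 0.12 ± 0.11 log2 and was not called (limma adjusted p = 0.491).

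Mcl1, the survival protein that NOXA blocks, read 10.14, 10.16, 9.87 and 9.89 log2 in P81S, 10.26, 10.27 and 10.54 in wildtype, and 10.29, 10.25 and 10.28 in R167Q. Its arrays did not overlap, and it was 1.23-fold lower (-0.30 ± 0.09 log2, limma adjusted p = 0.0257). Against wildtype alone Mcl1 was called lower (-0.34 ± 0.11 log2, limma adjusted p = 0.0312). Against R167Q alone it was not called (-0.26 ± 0.11 log2, limma adjusted p = 0.119). Bcl2l2 (BCL-w) differed by 0.39 ± 0.16 log2, Bcl2a1c by -0.21 ± 0.16 and Bcl2l10 by 0.01 ± 0.18, and none of these passed. Of the pore formers, Bak1 (0.09 ± 0.11 log2) and Bok (0.30 ± 0.14 log2) were measured and did not pass, with limma adjusted p of 0.596 and 0.125, and Bax was not analysed here. Of 5 measured genes of the apoptosome and effector caspases, Cycs, Apaf1, Casp9, Casp6 and Xiap, 0 passed by limma, and 1 was lower without P81S replicate 1. Of all genes 35.7% passed with all arrays, and 18.5% were lower without P81S replicate 1.

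Genes whose proteins switch or anchor BH3-only proteins were mostly higher where they passed. In this list of 20 measured genes there were 9 that rose and 1 that fell, and the median was 0.22 log2, where 18.3% of all genes rose, 17.4% fell and the median was 0.02 log2. They included 14-3-3 genes, whose proteins hold phosphorylated BAD away from mitochondria: Ywhag was 1.66-fold (0.74 ± 0.07 log2, limma adjusted p = 4.27e-05) and Ywhah 1.46-fold higher (0.54 ± 0.07 log2, limma adjusted p = 0.00027). Both had all 4 P81S arrays above all others. Ppp3ca and Ppp3cb, subunits of calcineurin, which removes phosphate from BAD, were 1.48-fold and 1.35-fold higher. Mapk10, the neuronal JNK kinase, was 1.65-fold higher (0.72 ± 0.14 log2, limma adjusted p = 0.00233). Neuron and glia markers were high in the same P81S arrays, as given for Hrk, and their part in these differences was not tested. The gene that fell, Pim1, encodes a kinase of BAD and is named after its value was seen. It was 2.26-fold lower (-1.18 ± 0.24 log2, limma adjusted p = 0.00299).

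The dynein light chains that hold BIM and BMF are named outside the rule, after their values were seen. Dynll2, the partner of BMF, read 11.10, 11.15, 11.48 and 11.46 log2 in P81S, 10.87, 10.82 and 10.85 in wildtype, and 10.87, 11.09 and 11.15 in R167Q. It was 1.28-fold higher (0.35 ± 0.10 log2, limma adjusted p = 0.0141), with R167Q replicate 3 inside the P81S range. Against wildtype alone Dynll2 differed by 0.45 ± 0.11 log2 (limma adjusted p = 0.00992). Against R167Q alone it differed by 0.26 ± 0.11 log2 and was not called (limma adjusted p = 0.136). Dynll1, the partner of BIM, differed by 0.01 ± 0.06 log2 (limma adjusted p = 0.885).

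Among 18 measured transcription factors and regulators known to act on BH3-only genes, 3 were called higher, 4 lower and 11 neither, and the median was 0.07 log2. Of all genes 18.3% were called higher and 17.4% lower, and their median was 0.02 log2. E2f1, which can induce several BH3-only genes, read 8.03, 8.19, 7.87 and 7.82 log2 in P81S, 8.91, 8.82 and 9.07 in wildtype, and 8.70 to 9.06 in R167Q. It was 1.93-fold lower (-0.95 ± 0.12 log2, limma adjusted p = 0.000142), and cell cycle markers were lower in the same arrays (list mean 8.82 to 10.04 log2 in P81S, 10.60 to 11.23 in the others). Mycn fell 1.92-fold and Foxo4 1.31-fold, and Foxo4 was not called against R167Q alone (limma adjusted p = 0.0806). The AP-1 genes Fos and Jun, which act in the JNK response that induces Hrk and Bcl2l11 in neurons, both rose, Fos 2.18-fold (1.12 ± 0.18 log2, limma adjusted p = 0.000635) and Jun by 0.59 ± 0.10 log2 (limma adjusted p = 0.000879). All 4 P81S arrays of Fos, 8.31, 8.11, 8.21 and 8.74 log2, lay above wildtype (6.87 to 7.12) and R167Q (6.99 to 7.80). Whether Fos or Jun bears on the level of Hrk or Bcl2l11 was not tested, and Bcl2l11 was not called. The part of neuron and glia content in the Fos and Jun differences was not tested either. Foxo1 and Foxo3, the FOXO factors best known for BIM, differed by -0.03 ± 0.13 and 0.25 ± 0.10 log2 and did not pass against the mean of both genotypes (limma adjusted p of 0.866 and 0.0758). Against wildtype alone Foxo3 was higher with arrays that did not overlap (0.42 ± 0.12 log2, limma adjusted p = 0.0168), and against R167Q it differed by 0.07 ± 0.12 log2 (limma adjusted p = 0.712). Both are named outside the rule. Trp53 was not analysed here.

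In P81S against the mean of wildtype and R167Q, 18.3% of all genes were called higher and 17.4% lower. Of 7 measured genes for other BH3-like proteins 0 rose and 1 fell by limma, Bcl2l12 (-0.41 ± 0.12 log2, limma adjusted p = 0.0225), while the mitophagy receptors Bnip3 and Bnip3l did not pass in that comparison. Bcl2l12 was not called against wildtype alone (limma adjusted p = 0.0667). Against wildtype alone Bnip3 was higher with arrays that did not overlap (0.59 ± 0.16 log2, limma adjusted p = 0.0157), and against R167Q it differed by 0.02 ± 0.16 log2 (limma adjusted p = 0.964). The Bnip genes are named outside the rule. Without P81S replicate 1, 2 genes of this list were called lower, and 2 of the switch and anchor list, where the share of all genes called lower went from 17.4% to 18.5%. Of 7 measured genes listed for turnover 1 rose and 3 fell with all arrays, where 18.3% of all genes rose and 17.4% fell. Usp27x, a deubiquitinase that stabilises BIM, was 1.37-fold higher (0.45 ± 0.12 log2, limma adjusted p = 0.0157). The ubiquitin ligase genes Itch and Cul5 fell 1.29-fold and 1.37-fold, and Siva1, an apoptosis adaptor, fell 2.37-fold (-1.24 ± 0.20 log2, limma adjusted p = 0.000612). Usp27x and Cul5 were not called against R167Q alone (limma adjusted p = 0.0511 and 0.0962). In R167Q against wildtype 0 genes of these 7 lists passed by limma, where 0.0903% of all genes did.

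**Figure D4:**
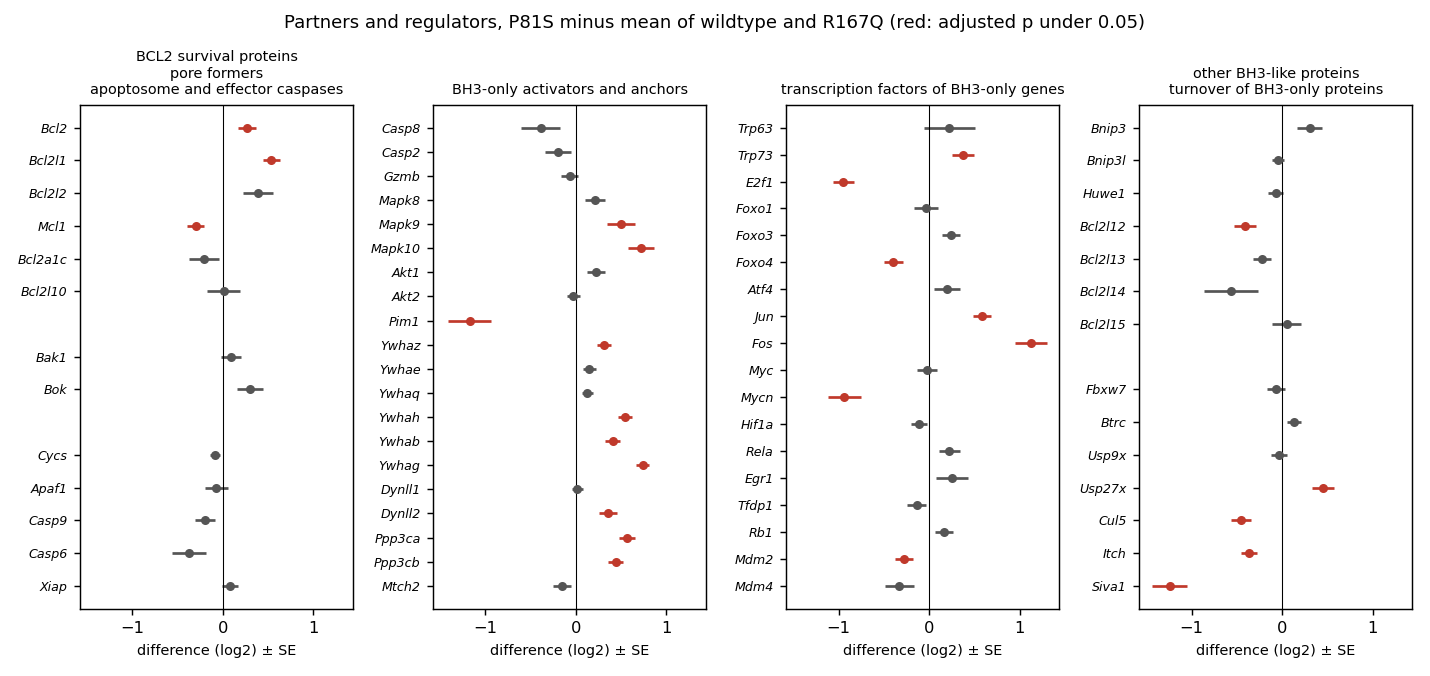
Log2 difference between P81S and the mean of wildtype and R167Q (x axis, ± SE) for the measured partners and regulators of BH3-only proteins, grouped by role, in red where the adjusted p was under 0.05. Bcl2l1 (0.54), Ywhag (0.74) and Fos (1.12) lie to the right, and Pim1 (-1.18), E2f1 (-0.95) and Siva1 (-1.24) to the left.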

How the data were processed

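RNA of 10 teratomas was measured on 1-colour Affymetrix arrays labelled with biotin. The authors deposited log2 expression values, 1 per probe set and array. RMA and Partek are named in the submitters' processing notes, without versions or roles, and settings are not given in the sources used here. If arrays were set to 1 distribution, each difference is relative to the other transcripts of the array. Array medians were 6.97 to 7.11 log2, signal over background is not known, and precision is limited by how many arrays there were.

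Of 35556 probe sets, 21218 named 1 gene, 1881 several and 12457 none. Each of 18820 genes was represented by its highest-mean probe set. All 10 arrays entered a model with 3 group means in limma 3.58.1 (variance trend, two-sided; R 4.3.3, statmod 1.5.0), with 7 residual degrees of freedom. Benjamini-Hochberg adjustment ran over all genes, with calls at an adjusted p under 0.05. Errors of differences are SE, and 95% intervals use the moderated degrees of freedom. The fit was run on simulated data with independent arrays. Those data held no shared clones and no differences in tissue content, so the run says nothing about either. Members, gene lists and alternatives were chosen with earlier results of these data known; lists are described by counts and medians.

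Named genes were all measured BH3-only genes, all survival and pore-former genes, up to 5 called genes with the smallest p of every other pathway list, and the 3 genes most and least like each called member. Alternatives changed the scaling, gene filter, probe set rule, variance model, weights, blocks, arrays and test.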

Additional observations from a re-analysis of the deposited data

Results flagged for a closer look

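Probe set 10465508, which is annotated to both Gpr137 and Bad and so entered no gene-level comparison, was higher in every P81S array than in the other 6. It read 9.43, 9.51, 9.75 and 9.82 log2 in P81S replicates 1 to 4 (mean 9.63), 9.05, 8.91 and 8.59 in wildtype, and 8.94, 9.03 and 8.92 in R167Q. Fitted among 23099 probe sets that list 1 or more genes, it was 1.64-fold higher in P81S than in the mean of wildtype and R167Q (0.72 ± 0.12 log2, limma adjusted p = 0.000781). The other probe set of the pair, 10461017, differed by 0.22 ± 0.14 log2 (limma adjusted p = 0.268). Neither value can be assigned to Bad, whose protein promotes death, or to Gpr137. Among the 7 measured BH3-only genes, no array of P81S stood apart by Dixon's test, which was run in that group alone.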

How the results depend on the processing

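Counts of BH3-only genes were small and moved with the setting, as did the share of all genes called. Here "against both" means against the mean of wildtype and R167Q. Against both, 35.7% of all genes were called as reported and 45.4% with array weights. Without dim genes 5061 were called, from fewer tested. The shares under the clone pairing and with 2 P81S arrays left out are not given here, so those counts have no background beside them. With P81S set against both other genotypes, the count of 1 became 0 without dim genes (Hrk is itself below that limit, so it was not tested, and Bid and Bcl2l11 were the 2 of 7 left), 5 with array weights, 2 with the replicate number as a block, 2 with P81S replicates 1 and 3 taken as a clone, 3 without P81S replicates 1 and 2 and 0 without replicates 3 and 4. Against wildtype it became 0, 5, 2, 3 and 0 under the same settings except the clone pairing. Against R167Q it became 0 without dim genes, with only the compared groups and with the replicate block, 2 with array weights, 3 without P81S replicates 1 and 2 and 0 without 3 and 4. With any 1 array left out the counts were 1 to 3 against both, 0 to 3 against wildtype, 0 to 3 against R167Q and 0 for R167Q against wildtype. Of all genes, 4234 passed between P81S and R167Q and 2419 without P81S replicates 3 and 4, and 17 between R167Q and wildtype, with 3 without dim genes, 26 with only those groups and 42 with array weights. Leaving out 1 array gave 5736 to 7038 genes against both, 5073 to 6953 against wildtype, 2328 to 4916 against R167Q (fewest without R167Q replicate 1) and 5 to 21 for R167Q against wildtype. Arrays with the same replicate number share only a number: their deviations from the group means correlated at -0.28 to 0.21. With it as a block 5263 genes passed against both, Hrk missed the threshold against R167Q (limma adjusted p = 0.0868), Pmaip1 passed against both and wildtype (0.0483 and 0.0398), and no other BH3-only gene changed its call. No called difference changed sign under the alternatives run. The counts of partner genes without P81S replicate 1 were added after seeing the data. Where dim genes shape the count, fewer genes were tested; the other causes were not tested.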
